A study of Mus musculus with 22 samples.

Results

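The interleukin-1 (IL-1) family cytokines and receptors were followed across the sorted stromal cells of a mouse breast tumor. The set holds 10 genes, found by symbol among the 41388 genes counted: the ligands *Il1a*, *Il1b*, *Il18* and *Il33*, the receptor antagonist *Il1rn*, the receptors *Il1r1*, *Il1rl1* and *Il18r1*, the accessory receptor *Il1rap* and the decoy receptor *Il1r2*. All 10 passed the filter on low counts, and 15018 genes in all were tested. Tumors had grown in C57BL/6 mice, given as postnatal day 56 by the labels, before their cells were sorted by the TdTomato reporter and by CD45, the surface protein of blood-derived cells. This gave TdTOSX single positive cells (TdTOSX+;CD45-), double positive cells (TdTOSX+;CD45+), CD45 single positive cells (TdTOSX-;CD45+) and double negative cells (TdTOSX-;CD45-). Wild type here means Osx-cre;Ai9 mice, of which 4 were inoculated, and the other genotype is Cdh2-cKO;Ai9, of which 6 were inoculated. Ai9 is a TdTomato allele that Cre switches on, and both genotypes carry it. Osx-cre is a doxycycline-repressible Cre under the promoter of *Sp7*, the gene of the osteoblast factor osterix (Osx), so TdTomato marks cells that expressed it while doxycycline was absent and the progeny of these cells, not a present cell type. The labels name neither the *Cdh2* allele that was deleted nor the Cre that deleted it. The labels name no treatment other than the tumor, although the study states that it went on with mice kept on doxycycline chow until weaning, and every mouse carried a tumor, so no tumor-free tissue serves as a control. The labels name the tumor as orthotopic MMTV-BO1, whereas the design text has subcutaneous tumors and the methods have a GFP-labeled PyMT-BO1 line, so line and site are uncertain. Each genotype has 2 libraries of TdTOSX single positive cells and 3 of every other population, 22 in all, 12 of CD45+ and 10 of CD45- cells. The reads counted in a library numbered 16594228 at the lowest and 26784003 at the highest. Levels are given as normalized CPM, that is, CPM after scaling each library with its TMM factor. In these libraries 3 counts stand for 0.103 to 0.2 CPM, and such floors cover counting error only.

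IL-1α and IL-1β, the products of *Il1a* and *Il1b*, bind the receptor encoded by *Il1r1*, which signals after it recruits the accessory protein encoded by *Il1rap*. The antagonist from *Il1rn* occupies the same receptor without signaling, and the decoy receptor from *Il1r2* binds the ligands but lacks a signaling tail. IL-33 is an alarmin stored in the nucleus of barrier and stromal cells that signals through ST2, the product of *Il1rl1*, with the same accessory protein, and IL-18 signals through the receptor from *Il18r1* with its own accessory chain. In tumors, IL-1 from myeloid cells is known to act on fibroblasts and endothelium.

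The labels were first read against the genes that define them. *Cdh2*, which encodes N-cadherin, had 9.12 and 5.19 CPM in the wild type TdTOSX single positive libraries and 17.2 and 13.1 CPM in those labelled Cdh2-cKO. In double negative cells it had 6.01, 7.46 and 4.51 CPM in wild type and 12.4, 18.4 and 14.2 CPM in the libraries labelled Cdh2-cKO. The double positive libraries had 0.712, 0.351 and 0.422 CPM in wild type and 0.606, 0.0 and 0.42 CPM in those labelled Cdh2-cKO. The CD45 single positive libraries had 0.36, 1.54 and 0.484 CPM in wild type and 0.384, 2.74 and 0.768 CPM in those labelled Cdh2-cKO. In CD45- cells the target of the knockout was thus higher in every library labelled Cdh2-cKO than in every wild type library. In TdTOSX single positive cells this goes against the label. Double negative cells lack the TdTomato that Cre switches on, so a loss of *Cdh2* need not show in them. In TdTOSX single positive libraries *Krt18*, a keratin, had 17.8 and 431 CPM in wild type and 665 and 692 CPM in those labelled Cdh2-cKO. In double negative libraries it had 397, 1110 and 372 against 972, 1570 and 844 CPM. The part of epithelial transcripts in the *Cdh2* level was not tested. Whole-gene counts do not resolve a deleted exon, so they check the level of the transcript and not the allele. Every direction between the genotypes given for the IL-1 family is therefore a direction between libraries so labelled. Whether labels were exchanged between the genotypes was not tested, and if they were, each such direction would turn.

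*Ptprc*, the gene of CD45, had 471 to 1820 CPM in the 12 CD45+ libraries, with a median of 563 CPM. The CD45- libraries had 2.45 and 81.1 CPM in wild type and 164 and 89.7 CPM in Cdh2-cKO labelled TdTOSX single positive cells. The double negative libraries had 4.45, 38.6 and 337 CPM in wild type and 9.3, 15.6 and 10.8 CPM in those labelled Cdh2-cKO. Leukocyte transcripts were thus present in CD45- libraries at levels from 2.45 to 337 CPM, and the IL-1 family has to be read beside them. Wild type double negative replicate 3 stood apart with 337 CPM of *Ptprc* and 8280 CPM summed over 6 macrophage genes (*Adgre1*, *Csf1r*, *C1qa*, *C1qb*, *Mrc1* and *Cd68*), of which *C1qb* was the most abundant at 3960 CPM. In the other double negative libraries this sum ran from 103 to 1270 CPM. Wild type CD45 single positive replicate 2 also stood apart, with 3450 CPM summed over 4 B cell genes and 2220 CPM over 7 T cell genes, against at most 21.6 and 442 CPM in the other CD45+ libraries. Its macrophage sum was 3580 CPM against 11000 to 15900 CPM in the other CD45+ libraries. The CD45 result of each member, and other results where an unadjusted p was under 0.05, are also given without these 2 libraries, except for *Il18r1* in double negative cells, where counts are too few for a fold. The 2 libraries were chosen after the data were seen. Fibroblast genes (*Col1a1*, *Col1a2*, *Pdgfra*, *Dcn* and *Lum*) summed to 3230 to 44300 CPM in CD45- cells and to 47.2 to 162 CPM in CD45+ cells. *Sp7* itself had at most 1 count in any library, so the defining transcript of the Osx lineage was absent at this depth from the sorted TdTOSX+ cells, and the TdTomato transcript is not among the genes counted. *Krt18*, a keratin of epithelial cells, ran from 17.8 to 1570 CPM in the CD45- libraries and from 17.3 to 168 CPM in the CD45+ libraries. The 5 epithelial or tumor genes, with *Krt18* the most abundant, summed to 33.8 to 1990 CPM in CD45- and 132 to 470 CPM in CD45+ libraries. Of these 5 genes, 2 were called higher and 3 lower in CD45+ cells. The CD45- fractions thus also differ in epithelial transcripts, although the study separated the stromal cells from GFP+ tumor cells. The labels give no sex, and *Ddx3y* of the Y chromosome ran from 0.0 to 184 CPM and *Xist* from 3.36 to 175 CPM, so cells of both sexes are in the set and several groups mix them. Both transcripts were present together, at 30.9 CPM or more each, in wild type double negative replicate 1 (*Xist* 62.5 and *Ddx3y* 69.2 CPM). Among those labelled Cdh2-cKO, this held in TdTOSX single positive replicate 2 (55.4 and 62.3 CPM) and double negative replicate 2 (151 and 30.9 CPM). Wild type CD45 single positive replicate 2 had less *Xist*, 12.2 CPM, beside 184 CPM of *Ddx3y*. Whether these libraries hold cells of more than 1 mouse was not tested.

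The first comparison, CD45+ against CD45- cells with each of the 8 groups weighted equally, asks which ligands and receptors are read from immune and which from non-immune stroma. It divided the IL-1 family into 2 sides. Transcripts of both IL-1 ligands, their antagonist, the decoy receptor and the IL-18 receptor were higher in CD45+ cells, and those of the signaling IL-1 receptor, IL-33, the IL-33 receptor and the accessory receptor were higher in CD45- cells, the last by a small difference whose call was lost in several fits. Of the 10 members, 5 were called higher and 4 lower in CD45+ cells at an adjusted p of at most 0.05 by edgeR's quasi-likelihood test with Benjamini-Hochberg adjustment. Calls were common in this comparison, with 63.7% of all tested genes called, 32.6% higher and 31.1% lower, so the share of members called is no more than a frame for their sizes. The median absolute log2 fold change was 3.81 over the members and 0.67 over all tested genes. In bulk populations, fewer cells of a type and less RNA per cell cannot be told apart, and this holds for every difference given here.

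**Figure D1:**
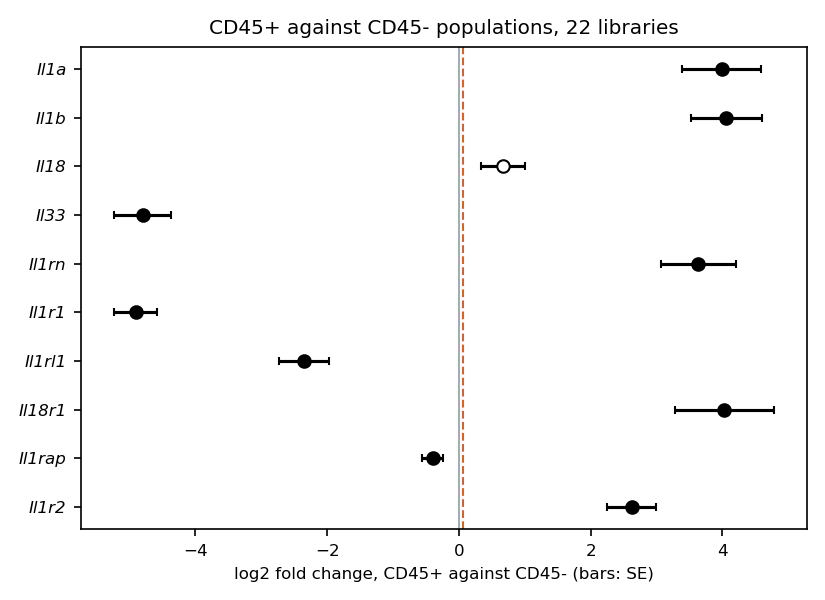
Log2 fold change of each IL-1 family member between CD45+ and CD45- populations over 22 libraries (bars: standard error; filled: adjusted p of at most 0.05 by edgeR; open: above it; dashed line: median of all genes, 0.06). Members lie between -4.90 for *Il1r1* and 4.06 for *Il1b*, and *Il18* at 0.67 is the open point.

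*Il1a* (ENSMUSG00000027399, chr2:129299610-129309972 on GRCm38, minus strand) encodes IL-1α, a ligand that also acts as an alarmin when cells are damaged. In CD45- cells it had 0.255 and 6.19 CPM in wild type TdTOSX single positive libraries, 39.8 and 28 CPM in those labelled Cdh2-cKO, 0.735, 7 and 52.5 CPM in wild type double negative libraries and 2.1, 4.6 and 2.83 CPM in those labelled Cdh2-cKO. The CD45+ libraries had 72.7 CPM at the lowest, 135 CPM at the median and 291 CPM at the highest. Every CD45+ library thus lay above every CD45- library, and within CD45- cells *Il1a* was highest in wild type double negative replicate 3, the library with the most *Ptprc*. *Il1a* was higher by a log2 fold change of 3.99 (SE 0.598, edgeR's adjusted p = 1.95e-05), a 15.8-fold difference, and by 4.56 without both libraries that stood apart. By group means, the order ran from CD45 single positive cells labelled Cdh2-cKO (176 ± 102 CPM, SD, n = 3) through double positive cells labelled Cdh2-cKO (171 ± 39.1 CPM), wild type CD45 single positive (123 ± 34 CPM) and wild type double positive cells (121 ± 47.2 CPM). These 4 groups overlapped, and a gap separated them from the CD45- groups, whose means ran from 33.9 to 3.18 CPM and whose neighbours in that order overlapped too.

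*Il1b* (ENSMUSG00000027398, chr2:129364570-129371139, minus strand) encodes IL-1β, which is made as a precursor and cut by caspase-1. It was the most abundant member per length, with a mean of 504 RPKM over the CD45+ groups, which placed it at rank 150 of the 15018 tested genes on that scale. In CD45- cells it had 6.17 and 46.5 CPM in wild type TdTOSX single positive libraries, 198 and 107 CPM in those labelled Cdh2-cKO, 10.1, 52.5 and 342 CPM in wild type double negative libraries and 17.3, 20.6 and 21.9 CPM in those labelled Cdh2-cKO. Wild type double positive libraries had 1330, 665 and 934 CPM, and wild type CD45 single positive libraries 1510, 346 and 674 CPM. Libraries labelled Cdh2-cKO had 876, 986 and 1020 CPM in double positive and 927, 920 and 1350 CPM in CD45 single positive cells. All CD45+ libraries were above all CD45- libraries, but narrowly so at 1 point, since the lowest of the former, wild type CD45 single positive replicate 2 at 346 CPM, met the highest of the latter, wild type double negative replicate 3 at 342 CPM. These are the 2 libraries that stood apart. The log2 fold change was 4.06 (SE 0.534, edgeR's adjusted p = 4.83e-06) and 4.62 without both libraries (edgeR's adjusted p = 4.58e-08). Neighbours in the order of group means overlapped among the CD45+ groups, from 1060 to 842 CPM, and among the CD45- groups, from 153 to 19.9 CPM, and a gap lay between.

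*Il1rn* (ENSMUSG00000026981, chr2:24336853-24351494, plus strand) encodes the antagonist of the IL-1 receptor, in a secreted form and intracellular forms that a count over the whole gene does not separate. In CD45- cells it had 2.6 and 27 CPM in wild type TdTOSX single positive libraries, 194 and 69 CPM in those labelled Cdh2-cKO, 8.49, 24 and 315 CPM in wild type double negative libraries and 15.7, 16.8 and 14.7 CPM in those labelled Cdh2-cKO. The CD45+ libraries ran from 236 CPM over a median of 570 CPM to 865 CPM. The sides overlapped through wild type double negative replicate 3 alone, whose 315 CPM exceeded 2 of the 12 CD45+ libraries, wild type CD45 single positive replicate 3 at 236 CPM and wild type double positive replicate 2 at 261 CPM. *Il1rn* was higher in CD45+ cells by a log2 fold change of 3.63 (SE 0.568, edgeR's adjusted p = 2.97e-05), and by 4.20 without both libraries that stood apart. Antagonist and ligand kept a similar proportion on both sides: the ratio of *Il1rn* to *Il1b*, each per length in RPKM, had a median of 0.31 in CD45+ (0.208 to 1.17) and of 0.441 in CD45- libraries (0.251 to 0.583). The highest ratio, 1.17, was that of wild type CD45 single positive replicate 2, in which *Il1b* was lowest and lymphocyte genes highest.

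**Figure D2:**
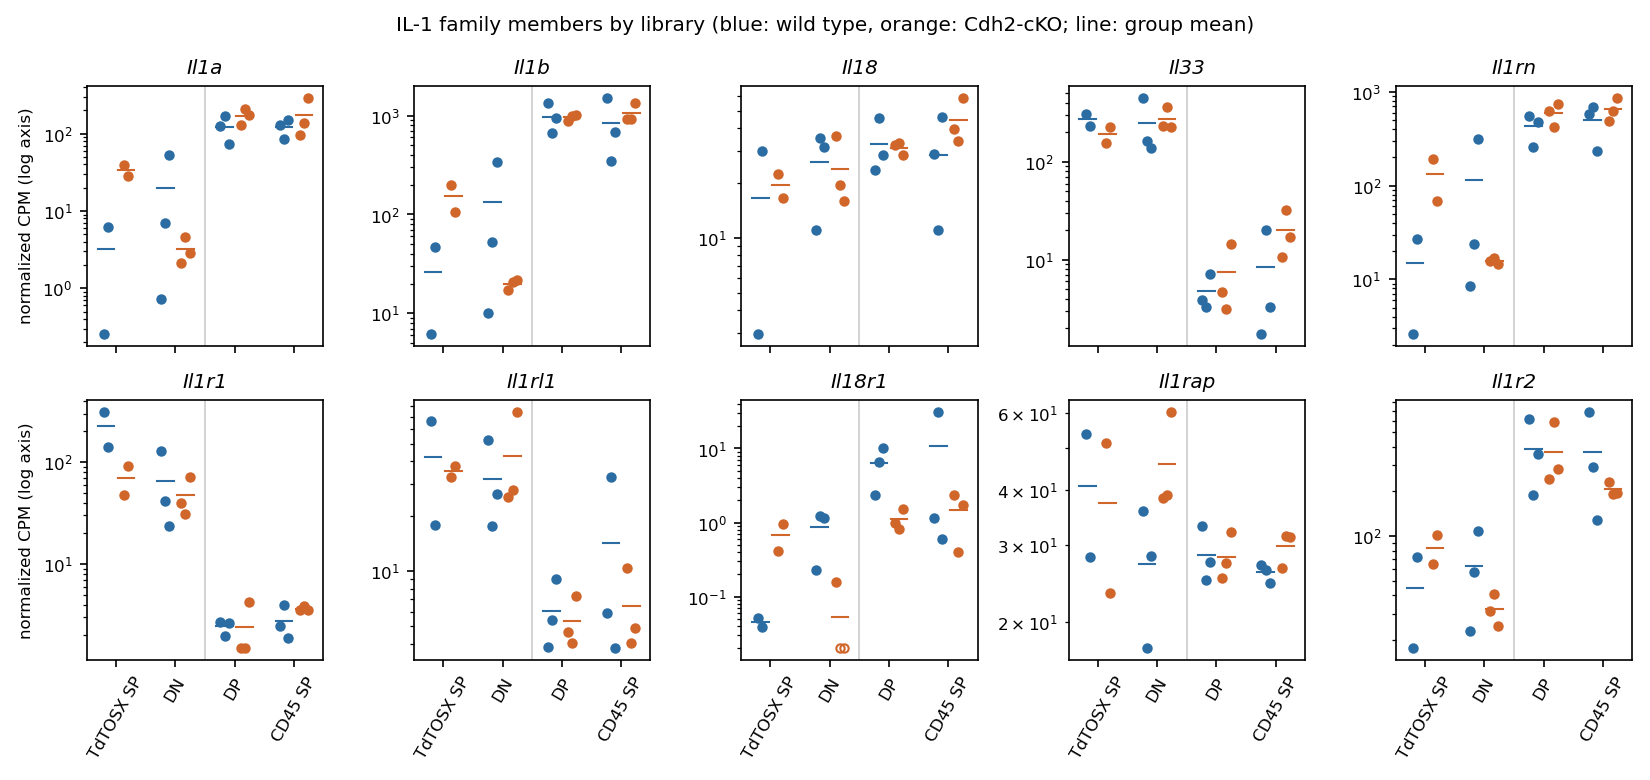
Normalized CPM (log axis) of the 10 members in each of the 22 libraries (points) by population, in wild type (blue) and labelled Cdh2-cKO (orange) cells, with group means as lines; SP is single positive, DP double positive, DN double negative, and open circles at the bottom are 2 libraries at 0. *Il1a*, *Il1b* and *Il1r2* of all CD45+ libraries lie above, and *Il33* and *Il1r1* below, those of all CD45- libraries.

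Levels of *Il1a*, *Il1b* and *Il1rn* in CD45- cells followed the amount of leukocyte transcript in each library. As a percentage of the *Ptprc* counts of the same library, those of *Il1b* were 57.3 to 252% in CD45- libraries (median 134%) and 19 to 296% in CD45+ libraries (median 178%). For *Il1a* these ranges were 7.63 to 31.2% and 4.68 to 50.7%, with medians of 20.4 and 26.8%. For *Il1rn* they were 33.3 to 191% and 37.5 to 153%, with medians of 106 and 84.5%. Relative to *Ptprc* the ranges of these 3 genes therefore overlapped, although the fitted folds between the sides were 12.4 or more. Ranges of the decoy receptor and IL-18 overlapped as well, but their medians lay further apart: *Il1r2* had medians of 190% in CD45- (32.2 to 719%) and 47% in CD45+ libraries (16.1 to 134%), and *Il18* of 106% (9.37 to 390%) and 6.38% (0.607 to 10.2%). The 3 genes also moved together across libraries, with Pearson correlations of log2 CPM of 0.98 between *Il1a* and *Il1b*, 0.97 between *Il1a* and *Il1rn* and 0.98 between *Il1b* and *Il1rn* over the 22 libraries. These points share the same 4 populations and the same libraries, so the values describe the set and are not tests. Whether CD45+ cells in the CD45- sort account for these levels was not tested.

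**Figure D3:**
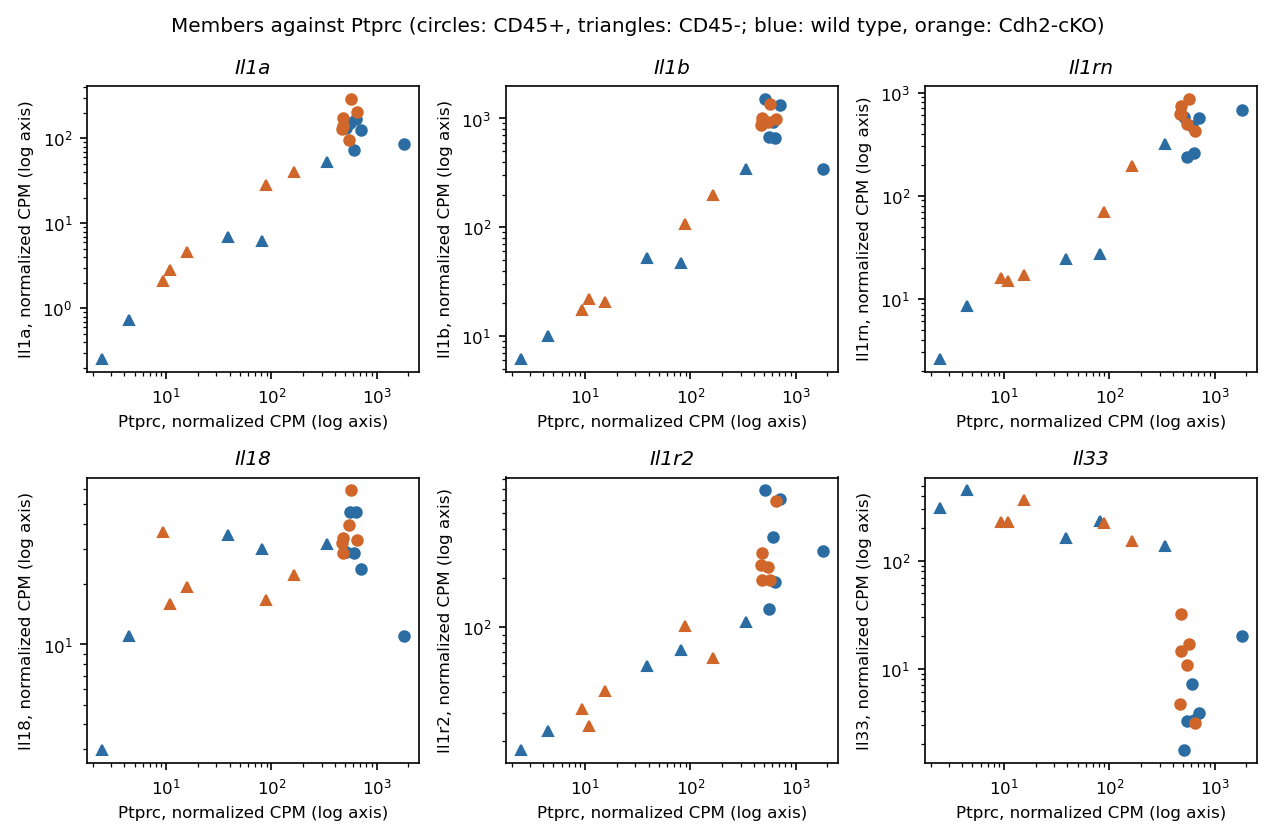
Normalized CPM of 6 members against that of *Ptprc*, both on log axes, in the 12 CD45+ (circles) and 10 CD45- libraries (triangles), in wild type (blue) and labelled Cdh2-cKO (orange) cells. *Il1a*, *Il1b* and *Il1rn* climb with *Ptprc* through the CD45- libraries, from 0.255 to 52.5 CPM for *Il1a*, whereas *Il18* shows a wide spread and *Il33* lies at 138 to 450 CPM in all of them.

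The promoters of the 3 genes are shown because their transcripts moved together. Each runs from 250 bases before to 50 bases after a start site annotated by RefSeq, on GRCm38.p6, in the direction of transcription, with motif matches in capitals and positions counted with the start base as 1 and no 0. All 10 members matched an entry of the RefSeq table, some with several start sites, and the first listed is given. The letters searched, on both strands, were GAGGAA for PU.1, GGG and CC with 5 bases between for NF-kB, TTNNGNAA for C/EBP, TGANTCA for AP-1, which reads the same on both strands, and TATAAA for the TATA box. Of 32851 promoters of this length, 28.3% hold the PU.1 letters, 50.8% the NF-kB letters, 40.7% the C/EBP letters, 7.81% the AP-1 letters and 13.6% the TATA letters. *Il1a* (chr2:129309923-129310222, minus strand) holds the C/EBP letters from -43 and the PU.1 letters from -41, which overlap in TTGAGGAA, with a TATA box from -32 and AP-1 letters from -12. *Il1b* (chr2:129371090-129371389, minus strand) holds C/EBP letters from -91 and a TATA box from -31, 1 base from its place in *Il1a*. *Il1rn* (chr2:24336610-24336909, plus strand) holds AP-1 letters from -141 and NF-kB letters from -54 and from -4, and no TATA letters. No motif was found in all 3 promoters shown. At 2 further start sites of *Il1rn*, however, the windows overlap and hold the same 3 matches of the C/EBP letters, 2 of which overlap each other. In 1 of these windows the TATA letters occur once. A match is a description of letters, neither a site nor a cause.
Il1a: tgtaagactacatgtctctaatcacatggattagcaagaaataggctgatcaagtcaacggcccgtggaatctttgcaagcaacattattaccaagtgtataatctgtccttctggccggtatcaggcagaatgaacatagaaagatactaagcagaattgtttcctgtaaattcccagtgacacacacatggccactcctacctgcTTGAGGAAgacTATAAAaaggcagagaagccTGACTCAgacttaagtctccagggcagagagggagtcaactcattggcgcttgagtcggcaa
Il1b: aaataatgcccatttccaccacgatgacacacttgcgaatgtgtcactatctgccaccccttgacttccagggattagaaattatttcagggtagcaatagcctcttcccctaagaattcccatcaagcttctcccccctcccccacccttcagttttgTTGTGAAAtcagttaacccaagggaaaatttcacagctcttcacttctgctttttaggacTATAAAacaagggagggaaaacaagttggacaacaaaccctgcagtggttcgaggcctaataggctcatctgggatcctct
Il1rn: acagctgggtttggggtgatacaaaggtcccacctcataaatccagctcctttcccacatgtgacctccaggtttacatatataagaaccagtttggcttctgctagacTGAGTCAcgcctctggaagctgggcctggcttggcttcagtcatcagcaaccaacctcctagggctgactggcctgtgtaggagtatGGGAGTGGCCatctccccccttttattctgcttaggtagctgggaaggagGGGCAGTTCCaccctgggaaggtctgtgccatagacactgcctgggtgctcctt

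*Il18* (ENSMUSG00000039217, chr9:50575273-50581837, plus strand), a ligand that primes interferon-gamma production and needs caspase-1 for its release, was present on both sides. It had 11 to 58.7 CPM in CD45+ libraries (median 32.7 CPM) and 2.96 to 36.3 CPM in CD45- libraries (median 20.8 CPM). Ranges overlapped for every neighbouring pair of groups, from 44.1 ± 12.9 CPM (SD, n = 3) in CD45 single positive cells labelled Cdh2-cKO to 16.5 ± 19.1 CPM (SD, n = 2) in wild type TdTOSX single positive cells, whose 2 libraries had 2.96 and 30 CPM. The log2 fold change was 0.67 (SE 0.335, edgeR's adjusted p = 0.0874) and did not pass the test, nor did it without both libraries that stood apart (0.75, edgeR's adjusted p = 0.054). It passed without wild type TdTOSX single positive replicate 2 (log2 fold change 1.29, edgeR's adjusted p = 0.00118) and without wild type CD45 single positive replicate 2 (0.77, edgeR's adjusted p = 0.0412). It also passed in the libraries labelled Cdh2-cKO alone (0.73, edgeR's adjusted p = 0.0148) and by voom with all libraries (0.83, adjusted p = 0.0127). Per length *Il18* came after *Il1b* and *Il1a* among the ligands in CD45+ cells, with a mean of 47.8 RPKM against 504 and 74.7 RPKM. In CD45- cells its mean over the groups, 30 RPKM, came after 85.5 RPKM for *Il33* and 43.8 RPKM for *Il1b*. By the median over CD45- libraries, *Il18* at 29.2 RPKM instead stood above *Il1b* at 17.9 RPKM, and below *Il33* at 79.5 RPKM. *Il1b* exceeded *Il18* in wild type double negative replicate 3 (179 against 44.2 RPKM). It also did so in TdTOSX single positive libraries labelled Cdh2-cKO (104 and 56.2 against 31.2 and 23.2 RPKM). In every other CD45- library *Il1b* was lower than *Il18*.

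*Il33* (ENSMUSG00000024810, chr19:29925114-29960718, plus strand) was the only ligand of the set called higher in CD45- cells. Wild type TdTOSX single positive libraries had 309 and 234 CPM and those labelled Cdh2-cKO 154 and 227 CPM. Wild type double negative libraries had 450, 164 and 138 CPM and those labelled Cdh2-cKO 231, 364 and 228 CPM. The CD45+ libraries had 1.74 CPM at the lowest, 5.93 CPM at the median and 32.1 CPM at the highest. All 10 CD45- libraries were above all 12 CD45+ libraries, and neighbours in the order of the 4 CD45- groups, with means from 274 to 191 CPM, overlapped. Between the sides the log2 fold change was -4.80 (SE 0.431, edgeR's adjusted p = 4.97e-08), a 27.8-fold difference, and -5.37 without both libraries that stood apart. In CD45- cells *Il33* ranked 710 of 15018 genes by RPKM, the highest of the members there. Wild type double negative replicate 1, with the most *Il33*, had 4.45 CPM of *Ptprc*, and replicate 3, with the least, had 337 CPM. The next highest, double negative replicate 2 labelled Cdh2-cKO at 364 CPM of *Il33*, had 15.6 CPM of *Ptprc*. The next lowest, TdTOSX single positive replicate 1 labelled Cdh2-cKO at 154 CPM, had 164 CPM. Whether *Il33* is related to leukocyte transcripts in these libraries was not tested. Fibroblast genes stood at 23600 CPM in the library with the most *Il33* and at 3230 CPM, their lowest in CD45- cells, in that with the least. No single order held, since *Col1a1* had 22300 CPM in wild type TdTOSX single positive replicate 1, where *Il33* had 309 CPM. In double negative replicate 2 labelled Cdh2-cKO, with 364 CPM of *Il33*, *Col1a1* had 3100 CPM. Whether fibroblast genes account for the level of *Il33* was not tested.

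*Il1r1* (ENSMUSG00000026072, chr1:40225080-40316198, plus strand), the signaling receptor of both IL-1 ligands, was low on the CD45+ side, where those ligands were high. Wild type TdTOSX single positive libraries had 310 and 140 CPM and those labelled Cdh2-cKO 47.5 and 91.1 CPM. Wild type double negative libraries had 130, 41.3 and 23.4 CPM and those labelled Cdh2-cKO 39.8, 31 and 71.8 CPM. In CD45+ cells the values ran from 1.49 CPM over a median of 2.68 CPM to 4.26 CPM. The sides did not overlap, and the lowest CD45- library was again wild type double negative replicate 3. The log2 fold change of -4.90 (SE 0.326, edgeR's adjusted p = 1.17e-09) was the largest of the members and a 30-fold difference. It was -5.16 without both libraries that stood apart. Wild type TdTOSX single positive cells (225 ± 120 CPM, SD, n = 2) stood first and did not overlap with the next group, TdTOSX single positive cells labelled Cdh2-cKO (69.3 ± 30.8 CPM, SD, n = 2), which overlapped with both double negative groups.

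Promoters of *Il33* and *Il1r1* are shown as those of the pair with the largest log2 fold changes toward CD45- cells, whose log2 CPM had a Pearson correlation of 0.94 over the same 22 libraries. They come from the same RefSeq table and build and were searched for the same letters. *Il33* (chr19:29924863-29925162, plus strand) holds the PU.1 letters from -4 and from 3, C/EBP letters on the opposite strand from -159 and the TATA letters from -203. *Il1r1* (chr1:40224830-40225129, plus strand) holds C/EBP letters on the opposite strand from -154 and from -133. At their second start sites, *Il33* holds the TATA letters from -29 and C/EBP letters at 2 places, and *Il1r1* holds NF-kB letters and C/EBP letters at 1 place each. Among the promoters shown, C/EBP letters thus occur in this pair as well as in *Il1a* and *Il1b*, and the PU.1 letters in *Il33* and *Il1a*.
Il33: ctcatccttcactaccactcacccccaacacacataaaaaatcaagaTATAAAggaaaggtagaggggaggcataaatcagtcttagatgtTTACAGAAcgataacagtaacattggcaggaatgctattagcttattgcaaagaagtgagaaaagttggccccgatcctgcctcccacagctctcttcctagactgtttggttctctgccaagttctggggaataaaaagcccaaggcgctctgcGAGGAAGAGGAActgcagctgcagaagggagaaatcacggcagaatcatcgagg
Il1r1: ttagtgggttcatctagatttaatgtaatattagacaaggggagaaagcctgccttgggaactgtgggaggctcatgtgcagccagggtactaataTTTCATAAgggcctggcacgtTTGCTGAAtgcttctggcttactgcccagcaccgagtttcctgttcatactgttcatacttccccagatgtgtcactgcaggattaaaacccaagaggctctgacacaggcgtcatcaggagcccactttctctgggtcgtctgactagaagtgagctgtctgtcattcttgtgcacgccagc

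*Il1rl1* (ENSMUSG00000026069, chr1:40429570-40465415, plus strand) encodes ST2, as a membrane receptor and as a soluble decoy, which whole-gene counts do not separate. Wild type TdTOSX single positive libraries had 66.2 and 18 CPM and those labelled Cdh2-cKO 32.8 and 37.7 CPM. Wild type double negative libraries had 52.1, 17.6 and 26.5 CPM and those labelled Cdh2-cKO 25.6, 27.9 and 74.5 CPM. In CD45+ cells it ran from 3.77 to 33 CPM, with a median of 5.12 CPM. The sides overlapped through wild type CD45 single positive replicate 2 alone, at 33 CPM, and the next highest CD45+ library had 10.4 CPM. *Il1rl1* was lower in CD45+ cells by a log2 fold change of -2.35 (SE 0.381, edgeR's adjusted p = 4.15e-05), and by -2.84 without both libraries that stood apart. The receptor thus lay on the side of its ligand IL-33, unlike *Il1r1*, which lay opposite to *Il1a* and *Il1b*. Mast cells are known carriers of ST2, and 6 mast cell genes, with *Tpsb2* the most abundant, summed to 1.74 to 861 CPM in CD45- libraries. They summed to 4.95 to 106 CPM in CD45+ libraries and 5 of the 6 were called lower there. A sort for CD45- cells is meant to leave out blood-derived cells such as these. Wild type TdTOSX single positive replicate 1 had 66.2 CPM of *Il1rl1* with a mast cell sum of 3.62 CPM, 4 of the 6 genes being at 3 counts or fewer, and replicate 2 had 18 CPM of *Il1rl1* with a sum of 861 CPM. In double negative cells labelled Cdh2-cKO, in contrast, the library with the most *Il1rl1*, 74.5 CPM, had a sum of 267 CPM, against 10.6 and 1.74 CPM in the other 2, so no single order held. The part of mast cells in the level of *Il1rl1* was not tested.

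*Il18r1* (ENSMUSG00000026070, chr1:40465552-40500854, plus strand), the ligand-binding receptor of IL-18, lies 136 bases beyond *Il1rl1* and had the fewest reads of the set, 1145 in all. Its CD45- libraries held 0 to 24 counts, or 0 to 1.23 CPM. Wild type double positive libraries had 2.37, 6.66 and 10.3 CPM and wild type CD45 single positive libraries 1.14, 31 and 0.592 CPM. Libraries labelled Cdh2-cKO had 0.992, 0.824 and 1.5 CPM in double positive and 2.36, 0.401 and 1.73 CPM in CD45 single positive cells. The highest value belonged to wild type CD45 single positive replicate 2, the library with the most T cell and B cell transcript, and 7 of the 12 CD45+ libraries were above every CD45- library. *Il18r1* was higher in CD45+ cells by a log2 fold change of 4.03 (SE 0.752, edgeR's adjusted p = 0.000165), and by 3.13 without both libraries that stood apart. Wild type TdTOSX single positive libraries had 1 count each and double negative libraries labelled Cdh2-cKO 3, 0 and 0 counts. The size of this fold is therefore loose. As a percentage of *Ptprc* counts, *Il18r1* had medians of 0.702% in CD45- (0 to 5.15%) and 0.306% in CD45+ libraries (0.0832 to 1.7%). T cell genes were next highest in wild type double positive replicate 3 and replicate 2, at 442 and 187 CPM, where *Il18r1* had 10.3 and 6.66 CPM. Whether they account for its level was not tested.

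*Il1rap* (ENSMUSG00000022514, chr16:26581704-26730117, plus strand), the accessory receptor shared by IL-1 and IL-33, was the most even member. It ran from 24.5 to 33.2 CPM in CD45+ libraries (median 27.2 CPM) and from 17.4 to 60.3 CPM in CD45- libraries (median 37.1 CPM), and 6 of the 10 CD45- libraries were above every CD45+ library. The log2 fold change was -0.40 (SE 0.162, edgeR's adjusted p = 0.0377), the smallest to pass the test, and -0.46 without both libraries that stood apart (edgeR's adjusted p = 0.0291). This call rests on single libraries, since it was lost without wild type TdTOSX single positive replicate 1 (log2 fold change -0.27), wild type double positive replicate 2 (-0.38) or replicate 3 (-0.39), wild type CD45 single positive replicate 3 (-0.39) or wild type double negative replicate 1 (-0.34). It was also lost without TdTOSX single positive replicate 1 (-0.23), double positive replicate 1 (-0.38) or replicate 2 (-0.40), CD45 single positive replicate 1 (-0.38) or double negative replicate 3 (-0.34) of those labelled Cdh2-cKO. Over all single libraries left out, edgeR's adjusted p ran from 0.00818 to 0.204. *Il1rap* was not called by voom either (log2 fold change -0.25, adjusted p = 0.155), nor by edgeR in wild type libraries alone (-0.29, edgeR's adjusted p = 0.344) or without the filter on low counts (-0.42, edgeR's adjusted p = 0.0524).

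*Il1r2* (ENSMUSG00000026073, chr1:40084768-40125219, plus strand), the decoy receptor, is the neighbour of *Il1r1* in the receptor cluster of chromosome 1 and stood on the other side. CD45+ libraries had 129 CPM at the lowest, 262 CPM at the median and 684 CPM at the highest. Wild type TdTOSX single positive libraries had 17.6 and 72.7 CPM and those labelled Cdh2-cKO 64.7 and 102 CPM. Wild type double negative libraries had 23, 57.6 and 108 CPM and those labelled Cdh2-cKO 31.4, 40.9 and 24.8 CPM. The sides did not overlap, and the highest CD45- library was wild type double negative replicate 3. The log2 fold change was 2.62 (SE 0.368, edgeR's adjusted p = 9.81e-06), and 2.75 without both libraries that stood apart. Per length, decoy exceeded receptor 188-fold to 1480-fold in CD45+ libraries (median 319-fold, from RPKM), whereas the ratio of *Il1r2* to *Il1r1* was 0.215 to 17.5 in CD45- libraries (median 3.62). *Il1r2* is a known transcript of neutrophils, whose 6 marker genes, with *Retnlg* the most abundant, summed to 20.2 to 826 CPM in CD45+ libraries with a median of 28.2 CPM. The sum of 826 CPM was that of wild type CD45 single positive replicate 2, which had 292 CPM of *Il1r2*, near the median. Of the 4 members on chromosome 1, the outer ones by position, *Il1r2* and *Il18r1*, were thus higher in CD45+ cells. *Il1r1* and *Il1rl1*, which lie between them, were higher in CD45- cells. Other genes of the cluster were not placed in this order, so it describes the members alone. The libraries do not keep strand, and antisense genes overlap *Il1a* (*Gm14023*), *Il1b* (*Il1bos*), *Il1r2* (*Gm16894*) and *Il1rap* (*Gm20319*). The study counted unambiguous reads only, so reads in shared exons would be missing from these members.

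TdTOSX+ and TdTOSX- cells were compared within each CD45 class, to ask whether cells of the Osx-cre lineage differ from the other stroma of their kind. *Il1r1* came nearest to a difference in CD45- cells, where the ranges of the 4 TdTOSX single positive libraries (47.5 to 310 CPM) and the 6 double negative libraries (23.4 to 130 CPM) overlapped. Its log2 fold change was 1.17 (SE 0.418, edgeR's adjusted p = 0.139). Fibroblast genes summed to 11600 to 44300 CPM in the TdTOSX single positive and 3230 to 23600 CPM in the double negative libraries, with *Col1a1* the most abundant, and their part in the level of *Il1r1* was not tested. No member was called by edgeR or DESeq2, against 1.89% of all tested genes by edgeR and 6.54% by DESeq2, and 1 member was called by limma's voom test against 4.78% of all tested genes, *Il1r1* with a log2 fold change of 1.35 and an adjusted p of 0.0285. At an unadjusted p under 0.05, 1 member was found by edgeR, again *Il1r1*, against 19% of all genes. Without wild type double negative replicate 1 edgeR called *Il1r1* (log2 fold change 1.67, edgeR's adjusted p = 0.0267) and 3.51% of all genes, and without both libraries that stood apart *Il1r1* had 0.96 (edgeR's adjusted p = 0.108). The libraries labelled Cdh2-cKO alone gave 4 calls by edgeR, *Il1a*, *Il1b*, *Il1rn* and *Il1r2*, against 8.1% of all genes, and in these libraries *Ptprc* was 89.7 and 164 CPM in TdTOSX single positive and 9.3 to 15.6 CPM in double negative cells. Group means of TdTOSX single positive and double negative cells labelled Cdh2-cKO were 33.9 and 3.18 CPM for *Il1a*, 153 and 19.9 CPM for *Il1b*, 132 and 15.7 CPM for *Il1rn* and 83.6 and 32.3 CPM for *Il1r2*. In wild type the means ran the other way, with 3.22 and 20.1 CPM for *Il1a*, 26.3 and 135 CPM for *Il1b*, 14.8 and 116 CPM for *Il1rn* and 45.1 and 63 CPM for *Il1r2*. The wild type double negative means were carried by replicate 3, while replicates 1 and 2 had 0.735 and 7 CPM of *Il1a*, 10.1 and 52.5 CPM of *Il1b*, 8.49 and 24 CPM of *Il1rn* and 23 and 57.6 CPM of *Il1r2*, within or near the range of the wild type TdTOSX single positive libraries. The comparison over both genotypes averages these, so its log2 fold changes, from -0.47 for *Il18* to 0.44 for *Il1r2* apart from *Il1r1*, do not show that each genotype was near 0. Whether the effect of TdTOSX in CD45- cells differs between the genotypes was not tested.

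In CD45+ cells the IL-1 ligands and *Il1rn* had log2 fold changes near 0 between double positive and CD45 single positive libraries. *Il1b* had 665 to 1330 CPM in double positive and 346 to 1510 CPM in CD45 single positive libraries, with a log2 fold change of 0.03 (SE 0.592). For *Il1a* it was -0.03 (SE 0.662) and for *Il1rn* -0.18 (SE 0.646). No member was called by edgeR, voom or DESeq2, against 0.00666% of all tested genes by edgeR, and 1 member and 4.06% of all genes had an unadjusted p under 0.05. This member was *Il33*, with 3.15 to 14.5 CPM in double positive and 1.74 to 32.1 CPM in CD45 single positive libraries and a log2 fold change of -1.11 (SE 0.528, edgeR's adjusted p = 1.0). Without wild type CD45 single positive replicate 2, and without both libraries that stood apart, it was -0.25. *Il1rl1* had -0.75 (SE 0.507) and *Il18r1* -0.60 (SE 0.777). A p above the threshold does not show that the populations were alike.

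Libraries labelled Cdh2-cKO and wild type were compared in each population, since the labels give both groups of each. Within CD45- cells *Il1a*, *Il1b* and *Il1rn* lay in opposite directions in the 2 populations. In TdTOSX single positive cells those labelled Cdh2-cKO were higher, with both libraries above both wild type libraries for *Il1a*, *Il1b* and *Il1rn*. Log2 fold changes were 3.38 (SE 1.28) for *Il1a*, 2.53 (SE 1.09) for *Il1b* and 3.15 (SE 1.22) for *Il1rn*. With 2 libraries a group these sizes are loose, and leaving out 1 library gave 2.45 to 7.02 for *Il1a*, 1.71 to 4.63 for *Il1b* and 2.22 to 5.66 for *Il1rn*. *Il1r1* was lower there, at 47.5 and 91.1 CPM against 310 and 140 CPM, with a log2 fold change of -1.70 (SE 0.673). Without both libraries that stood apart the values were 3.36 for *Il1a*, 2.53 for *Il1b*, 3.14 for *Il1rn* and -1.71 for *Il1r1*. These 4 members had an unadjusted p under 0.05 by edgeR, as did 10.5% of all genes, with edgeR's adjusted p at 0.403, 0.441, 0.409 and 0.418, and none was called by edgeR, voom or DESeq2, against 0.00666% of all tested genes by edgeR. *Ptprc* in these libraries was 164 and 89.7 CPM in those labelled Cdh2-cKO and 2.45 and 81.1 CPM in wild type, the macrophage sum 6090 and 2160 against 72.3 and 2210 CPM, and the fibroblast sum 11600 and 22500 against 44300 and 25200 CPM. *Krt18* was 665 and 692 CPM against 17.8 and 431 CPM, although GFP+ tumor cells had been separated from the stroma by the study. The part of these cell types in the levels of the 4 members was not tested. Wild type replicate 1 thus had the least leukocyte transcript, the least *Il1a*, *Il1b* and *Il1rn*, and the most *Il1r1*. With the label of the knockout not borne out by *Cdh2*, no direction here can be ascribed to its loss.

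In double negative cells the same 3 genes were lower in libraries labelled Cdh2-cKO, with log2 fold changes of -2.65 (SE 1.02) for *Il1a*, -2.76 (SE 0.897) for *Il1b* and -2.88 (SE 0.985) for *Il1rn*. The ranges overlapped, since wild type replicate 1 lay below all 3 libraries labelled Cdh2-cKO for each of these genes. The means were carried by wild type replicate 3, and without it the log2 fold changes were -0.26, -0.63 and -0.03, or -0.25, -0.63 and -0.03 without both libraries that stood apart. edgeR's test called none of the members, against 0% of all tested genes, as did voom, whereas DESeq2 called 2 members and 3.48% of all genes, *Il1b* (log2 fold change -2.66, adjusted p = 0.0271) and *Il1rn* (-2.78, adjusted p = 0.0355). Without wild type replicate 1 edgeR called 3 members and 4.04% of all genes, *Il1a* (-3.22, edgeR's adjusted p = 0.0395), *Il1b* (-3.30, edgeR's adjusted p = 0.0202) and *Il1rn* (-3.43, edgeR's adjusted p = 0.0326). At an unadjusted p under 0.05 edgeR found 5 members, against 9.6% of all genes, these 3 with *Il1rap* and *Il18r1*. *Il1rap* was higher in the libraries labelled Cdh2-cKO, at 38.4, 38.9 and 60.3 CPM against 35.8, 17.4 and 28.3 CPM, ranges that did not overlap, with a log2 fold change of 0.76 (SE 0.308, edgeR's adjusted p = 0.372), or 0.81 without both libraries that stood apart. *Il18r1* had 3, 0 and 0 counts in the libraries labelled Cdh2-cKO and 5, 24 and 21 counts in wild type, and its fold is not read at this depth. The macrophage sum was 103, 1270 and 8280 CPM in wild type and 216, 304 and 180 CPM in the libraries labelled Cdh2-cKO, and its part in the differences of *Il1a*, *Il1b* and *Il1rn* was not tested beyond leaving out single libraries.

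**Figure D4:**
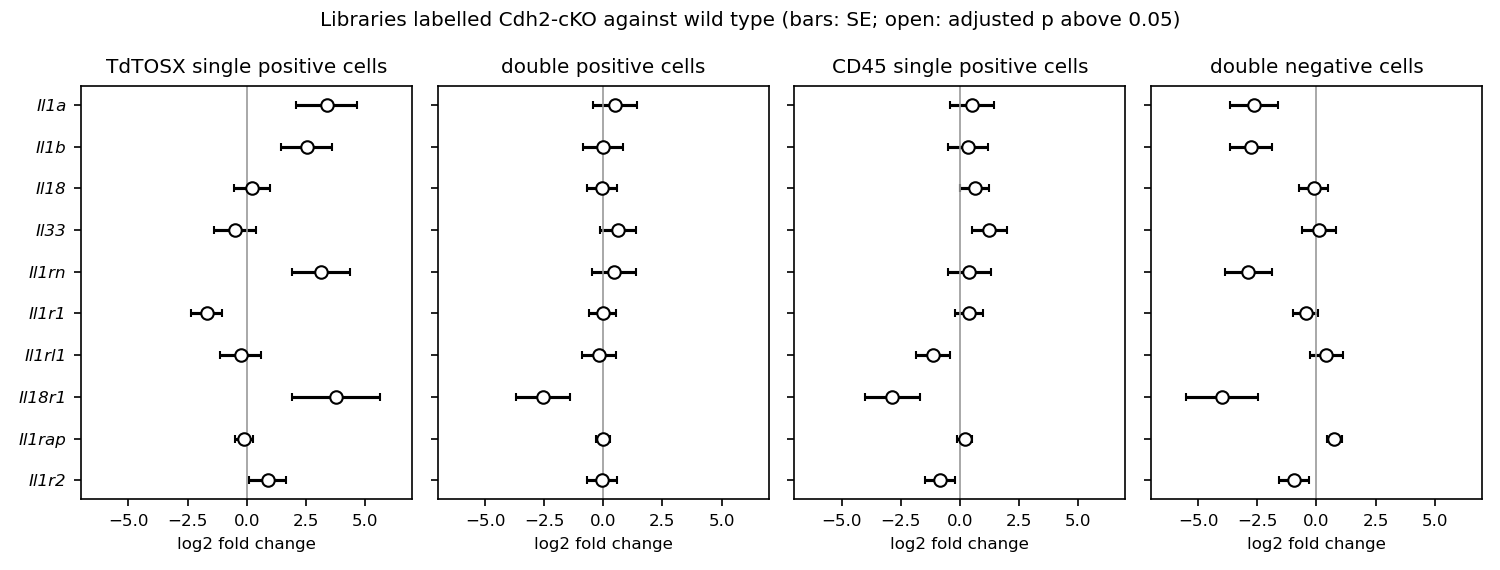
Log2 fold change of each member between libraries labelled Cdh2-cKO and wild type in each of the 4 populations (bars: standard error; all points are open, with an adjusted p above 0.05 by edgeR). *Il1a*, *Il1b* and *Il1rn* lie between 2.53 and 3.38 in TdTOSX single positive and between -2.88 and -2.65 in double negative cells.

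In the CD45+ populations the genotypes overlapped for the IL-1 ligands and *Il1rn*. In double positive cells log2 fold changes were 0.49 for *Il1a*, -0.02 for *Il1b* and 0.45 for *Il1rn*, and in CD45 single positive cells 0.52, 0.34 and 0.40. No member was called in double positive or in CD45 single positive cells by edgeR, voom or DESeq2, against 0% of all tested genes in each by edgeR. At an unadjusted p under 0.05, 1 member was found in each, against 3.43% of all genes in double positive and 9.81% in CD45 single positive cells, and in both it was *Il18r1*. In double positive cells *Il18r1* had 2.37, 6.66 and 10.3 CPM in wild type and 0.992, 0.824 and 1.5 CPM in the libraries labelled Cdh2-cKO, which did not overlap, with a log2 fold change of -2.54 (SE 1.15, edgeR's adjusted p = 1.0), or -2.58 without both libraries that stood apart. T cell genes summed to 47.3, 187 and 442 CPM in these wild type libraries and to 46.3, 31.8 and 14.1 CPM in those labelled Cdh2-cKO. In CD45 single positive cells the log2 fold change of *Il18r1* was -2.85 (SE 1.16, edgeR's adjusted p = 0.454), and it rested on wild type replicate 2, since it was 0.80 without this library or without both that stood apart.

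The differences between effects were tested as well. No member was called for an effect of CD45 that differed between the genotypes by edgeR, voom or DESeq2, against 0% of all tested genes by edgeR, and 1 member, *Il1r1*, had an unadjusted p under 0.05, against 7.7% of all genes (log2 difference 1.26, SE 0.591, edgeR's adjusted p = 0.643), or 1.61 without both libraries that stood apart. Likewise none was called by edgeR, voom or DESeq2 for a TdTOSX effect that differed between CD45+ and CD45- cells, against 0.00666% of all tested genes by edgeR. Here too *Il1r1* was the 1 member with an unadjusted p under 0.05, against 9.53% of all genes (log2 difference -1.55, SE 0.586, edgeR's adjusted p = 0.48), or -1.17 without both libraries that stood apart.

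Other genes of the pathway were read in the CD45 comparison from lists by function, each beside the median log2 fold change of 0.06 over all tested genes, of which 32.6% were called higher and 31.1% lower. Of 15 tested genes of ligand processing and release, 12 were higher and 1 lower in CD45+ cells, with a median log2 fold change of 2.18. *Pycard*, the adaptor of inflammasomes, had a median of 22 CPM in CD45- and of 337 CPM in CD45+ libraries (log2 fold change 3.38, SE 0.412, edgeR's adjusted p = 2.01e-06). *Casp1*, the protease that matures IL-1β and IL-18, had a log2 fold change of 1.34 (SE 0.19), *Casp8* of 1.17 (SE 0.133), *Aim2*, a sensor of DNA, of 2.74 (SE 0.369) and *Gsdmd*, the pore through which IL-1β leaves the cell, of 0.92 (SE 0.122). The side with *Il1b* was thus also the side with most transcripts of its maturation, and the 1 gene that was lower, *Cma1*, a mast cell protease, had a log2 fold change of -3.98 and belongs to the mast cell list as well.

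Receptor signaling lay closer to even. Of 21 tested genes 11 were higher in CD45+ cells and 0 lower by edgeR, against 32.6% and 31.1% of all genes, with a median of 0.30, while voom and DESeq2 each called 1 lower and edgeR 8 higher and 2 lower without both libraries that stood apart. *Rel*, an NF-kB subunit of leukocytes, had a log2 fold change of 2.99 (SE 0.396), *Ikbkb*, a kinase that frees NF-kB, of 1.33 (SE 0.178), *Irak4* of 1.05 (SE 0.142), *Traf6* of 0.91 (SE 0.195) and *Mapk14* of 0.87 (SE 0.104). *Myd88*, the adaptor of all signaling receptors of the family, was called with 0.68 (SE 0.176), and it is named after its value was seen. CD45- cells, which held most *Il1r1*, thus also held the signaling genes, at levels that mostly differed far less than the receptor itself.

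Genes known to respond to IL-1 were divided, with 7 higher and 9 lower in CD45+ cells of 21 tested and a median of -0.35, and all tested genes were divided as well, with 32.6% higher and 31.1% lower. The 5 with the smallest adjusted p were on the side of *Il1r1*. *Mmp3*, a matrix protease, had 239 to 2810 CPM in CD45- and 2.21 to 18.5 CPM in CD45+ libraries (log2 fold change -6.82, SE 0.405, edgeR's adjusted p = 3.45e-10). *Cxcl5*, a neutrophil chemokine, had a log2 fold change of -5.99 (SE 0.618), *Ptges*, a prostaglandin E synthase, of -3.98 (SE 0.282), the acute-phase gene *Saa3* of -3.68 (SE 0.544) and the cytokine *Lif* of -1.59 (SE 0.2). The next by adjusted p were on the other side, the adhesion gene *Icam1* (log2 fold change 1.76, SE 0.264) and the neutrophil chemokine *Cxcl2* (2.82, SE 0.433), which are named after their values were seen. These genes respond to other signals too, and a response to IL-1 was not tested.

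Genes known to respond to IL-33 or IL-18 were 3 higher and 2 lower of 7 tested from a list of 9, against 32.6% and 31.1% of all genes, with a median of 1.64. *Ccl17* (log2 fold change 4.01, SE 0.612) and *Ccl22* (3.02, SE 0.638), chemokines of dendritic cells and macrophages, and *Ifng* (3.68, SE 1.26) were higher in CD45+ cells, whereas *Gata3* (-1.62, SE 0.431) and *Csf2* (-2.01, SE 0.554), which is also in the list for IL-1, were lower. *Ifng* reached 38.9 CPM in 1 library at a median of 0.149 CPM over the CD45+ libraries. Of the other family members, 10 of 11 were found in the counts and 5 passed the filter, of which 4 were higher and 1 lower, against the same shares of all genes, with a median of 0.79. *Il18rap*, the accessory chain of the IL-18 receptor, had a log2 fold change of 1.47 (SE 0.287), the IL-18 binding protein gene *Il18bp* of 0.79 (SE 0.258), *Il1rl2*, a receptor of IL-36, of 0.52 (SE 0.176) and *Il36g*, a ligand of it, of 3.42 (SE 0.935) at a highest level of 6.81 CPM. *Sigirr*, an inhibitory receptor of the family, was lower at -1.34 (SE 0.403). In the other comparisons no gene of these lists was called by edgeR, and calls by voom and DESeq2 were counted for the CD45 comparison alone.

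**Figure D5:**
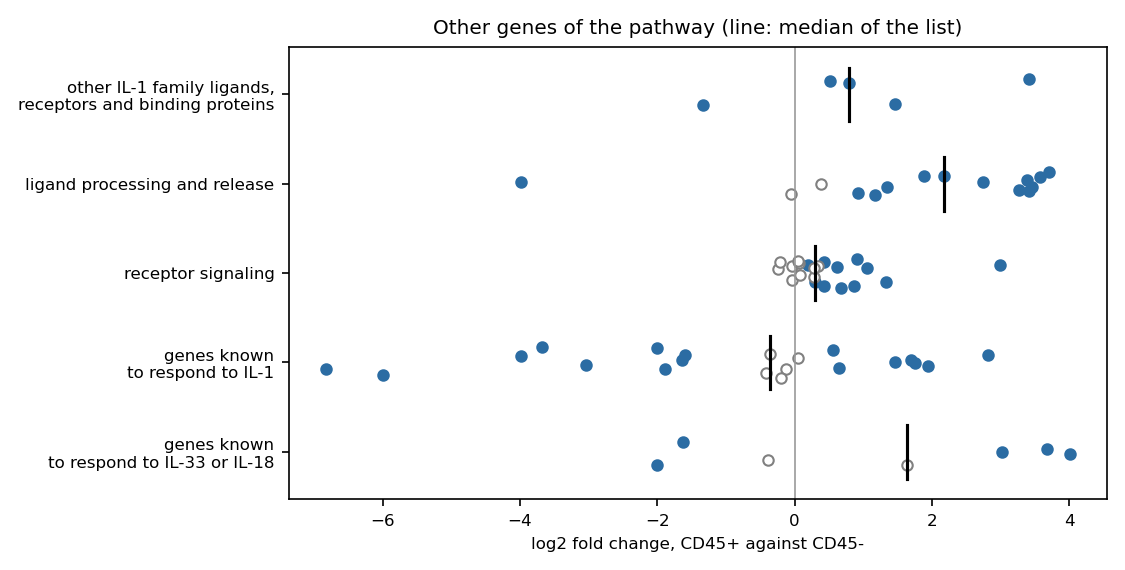
Log2 fold change between CD45+ and CD45- populations of each tested gene in the 5 lists (filled: adjusted p of at most 0.05 by edgeR; open: above it; vertical lines: median of the list). Medians run from -0.35 for genes known to respond to IL-1 to 2.18 for ligand processing and release, and *Mmp3* is the leftmost point at -6.82.

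Across the 22 libraries each member was last set beside the genes whose log2 CPM was most like its own by Pearson correlation. *Il1a* was nearest to *Cd86*, *Rgs1* and *Clec4n* (0.99, 0.99 and 0.98), *Il1b* to *Fuca2*, *Trem1* and *Cd83* (0.99 each) and *Il1rn* to *Mmp12*, *Ccl6* and *Clec7a* (0.99, 0.99 and 0.98). *Il33* was nearest to *Gpx8*, *Bmpr1a* and *Tpbg* (0.99, 0.98 and 0.98), *Il1r1* to *Col6a2*, *Svep1* and *Col3a1* (0.99 each) and *Il1rl1* to *Slco5a1*, *Osbpl5* and *Bdkrb1* (0.95, 0.94 and 0.94). *Il1r2* was nearest to *Rogdi*, *Bin3* and *Abr* (0.96 each). Likeness was lower for the members that the CD45 classes divide less clearly. It was 0.91 each for *Il18* with *Ctla2b*, *Coq3* and *Anxa3*, and 0.91, 0.91 and 0.90 for *Il18r1* with *Gm4956*, *Ms4a4b* and *Tmem243*. *Il1rap*, the most even member, had the lowest values, with 0.81 for *Pcdhb3*, 0.74 for *Exoc6b* and 0.71 for *Mmrn1*, of which *Pcdhb3* reached no more than 1.27 CPM. All these points share the 4 populations and their libraries, so the values describe a common division and nothing of shared control.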

How the data were processed

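Messenger RNA was measured in 22 libraries of sorted tumor stroma, made from amplified cDNA that does not keep strand. The deposited gene tables hold a count of reads per gene, made by the authors with STAR 2.0.4b and featureCounts 1.45 on GRCm38 per the submitters' notes, and the CPM and RPKM columns deposited beside it were not used. Members and lists were found by symbol and older RefSeq synonyms in the gene table of the annotation, and both were chosen with earlier results of these data known. From 41388 genes, 355 ribosomal RNA genes were left out, and 15018 genes with over 1 CPM in at least 2 of the 22 libraries were tested. Libraries were scaled by TMM and fitted in R 4.3.3 with 1 mean for each of 8 groups. The quasi-likelihood test of edgeR 4.0.16 was used with its default prior count, Benjamini-Hochberg adjustment and a threshold of 0.05. Correlations used log2 CPM with a prior count of 2. A comparison averages group means with equal weight, and standard errors were derived from the F statistic. RPKM divides normalized CPM by the length of the gene's exons. Alternatives were voom with quality weights (limma 3.58.1), DESeq2 1.42.0, RLE factors, no filter, each genotype alone, a replicate block, a further threshold on the log2 fold change, every single library left out, and both libraries that stood apart left out. Fits were tested on simulated data, and tables were made in Python 3.11.15. Genes named are the 10 members, up to 5 genes of each list with the smallest adjusted p and the 3 genes most like each member, and *Cma1*, *Myd88*, *Icam1*, *Cxcl2* and the label checks were added after values were seen. Counted reads ran from 16594228 to 26784003 per library (median 18977040), so 3 counts are 0.103 to 0.2 CPM. The labels speak of biological replicates without saying that each is a separate animal, so p-values measure the spread between libraries.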

Additional observations from a re-analysis of the deposited data

How the results depend on the processing

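The division of the IL-1 family by CD45 held in every alternative fit for the 8 members with the larger effects, which were also the 8 called with a log2 fold change of at least 2 required (24.7% of all genes), while the calls of *Il1rap* and *Il18* did not. *Il1rap* lost its call by voom (log2 fold change -0.25), without the filter (-0.42), in wild type libraries alone (-0.29) and without 1 of 10 single libraries named in the report, and *Il18* gained one by voom (0.83), in the libraries labelled Cdh2-cKO alone (0.73) and in 2 fits without 1 library. With the replicate block all 10 members were called for CD45, against 60.9% of all genes, with *Il18* at 0.83, and no count of 0 changed. Same-numbered libraries had correlations from -0.3 to 0.59 (median 0.05, 9 of 30 over 0.1) and different-numbered ones from -0.59 to 0.43 (median -0.02, 6 of 60 over 0.1). Set against another population, a library matched best with its own number in 29 of 60 cases. Since not every same-numbered pair was over 0.1, they were not treated as pairs. *Ddx3y* was alike under numbers 1 and 3 of each genotype (56.2 to 122 CPM in the 4 wild type libraries numbered 1, at most 0.42 CPM in the others). Under number 2 the CD45 single positive library differed from the rest. Wild type libraries numbered 2 had 0.116, 0.0, 184 and 0.0511 CPM, and those labelled Cdh2-cKO 62.3, 89.3, 0.735 and 30.9 CPM. Without 1 library the CD45 log2 fold changes ran from 3.75 to 4.9 for *Il1a*, 3.86 to 4.58 for *Il1b*, 3.42 to 4.26 for *Il1rn*, -5.23 to -4.62 for *Il33*, -5.09 to -4.66 for *Il1r1*, 2.41 to 2.95 for *Il1r2*, -2.74 to -2.05 for *Il1rl1*, 3.12 to 4.81 for *Il18r1*, -0.52 to -0.23 for *Il1rap* and 0.46 to 1.29 for *Il18*. In these fits 8 to 10 members were called, against 59.3 to 67.1% of all genes. The count of 0 between genotypes in double negative cells was 2 by DESeq2 and 3 without wild type double negative replicate 1 (*Il1a* -3.22, *Il1b* -3.30, *Il1rn* -3.43). The count of 0 for TdTOSX in CD45- cells was 1 by voom, 4 in the libraries labelled Cdh2-cKO alone and 1 without wild type double negative replicate 1 (*Il1r1* 1.67). The genotype difference of *Il18r1* in CD45 single positive cells changed sign, to 0.29 by voom and 0.80 without both libraries that stood apart or without wild type replicate 2 alone, and ran from -3.41 to 0.80 without 1 library. Of the list counts, genes of receptor signaling called lower moved from 0 to 1 by voom and DESeq2 and to 2 without both libraries. Without 1 library the genotype differences in TdTOSX single positive cells ran from 2.45 to 7.02 for *Il1a*, 1.71 to 4.63 for *Il1b*, 2.22 to 5.66 for *Il1rn* and -2.24 to -1.01 for *Il1r1*, and those in double negative cells from -3.22 to -0.26, -3.3 to -0.63 and -3.43 to -0.03 for *Il1a*, *Il1b* and *Il1rn*. The data have 2 or 3 libraries per group, mixed sexes and CD45- sorts that differ in leukocyte, fibroblast and epithelial transcripts. The tumor's line and site are given in conflicting ways. In TdTOSX single positive cells the *Cdh2* level goes against the knockout label. The data measure RNA over whole genes in bulk, so protein, its processing and release, soluble forms and the cell that made a transcript were not measured.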
